A study of Oryza sativa with 16 samples.

Results

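A block of loci in the middle of rice chromosome 1 was described in flag leaves of 2 genotypes, with and without reproductive-stage drought stress (RDS). The block runs from LOC_Os01g37050 to LOC_Os01g41565 in the order of the locus identifiers of the japonica reference annotation. Of 418 loci of the count table described in this range, 199 had at least 10 counts over all 16 libraries and are the members described here, among 28283 such loci in the whole table of 55801. A further 62 loci of the range held 1 to 9 counts and 157 held 0. One more locus, which is not among the 418, is not reported here. The ends were set with the differences between the genotypes known. The differences between the genotypes inside the block are therefore given as a description, without a test. The drought changes within each genotype were not used to set the ends and were tested, but they share their libraries with those differences.

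The libraries fell into 4 groups of 4 biological replicates: DTY-IL under RDS, DTY-IL under control conditions, Swarna under RDS and Swarna under control conditions. Swarna is an indica variety that is sensitive to drought. DTY-IL is a single drought-tolerant introgression line that carries fragments of the donor N22 in a Swarna background, so that any difference between the genotypes is a difference between 1 line and its recurrent parent. The plants grew in pots in a greenhouse. Stressed plants had water withheld to 75% and then 50% of field capacity, and flag leaves of both treatments were harvested on day 12 of the stress.

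An introgression line is made by crossing a donor into a recurrent parent and crossing back, after which most chromosomes come from the parent and a few segments come from the donor. A donor segment is inherited as one piece. The neighbouring genes inside it therefore carry donor alleles together, whatever their functions. The flag leaf is the uppermost leaf of the rice tiller and a main source of sugars for the filling grain. No annotation of the identifiers of this block was used here, so members are named by identifier alone, no roles are stated, and the tissue label was not checked against marker genes. The study placed the donor fragments of DTY-IL by SNP genotyping. Those positions were not used here, and which members lie on a donor fragment was not established.

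Levels are given as CPM, the counts of a locus relative to the library total, scaled by the trimmed mean of M values (TMM) so that libraries compare. They are not divided by transcript length and do not rank loci against each other. In 14250527 to 19367077 counts per library, 3 counts in 1 library corresponded to 0.144 to 0.237 CPM. Members differed widely in depth: the median member had a mean of 100.2 counts per library, 120 members had a mean of at least 50 and 57 had a mean under 10. A call below means an edgeR adjusted p no higher than 0.05, over all 28283 loci, together with a log2 fold change of 1 or more in size. Between the genotypes and in the interaction, a call marks a member for description and is no test of the block. The members called in at least 1 of the 5 contrasts numbered 91, and 108 passed in none. The same counts over all loci are not given here.

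Under RDS 39 of the 199 members (19.6%) passed both thresholds between DTY-IL and Swarna, 24 of them higher and 15 lower in DTY-IL. Over all loci 6.59% did so (4.20% higher and 2.39% lower in DTY-IL). Under control conditions the count was 37 (18.6%), with 24 higher and 13 lower in DTY-IL, against 5.11% of all loci (2.99% higher and 2.12% lower in DTY-IL). In all, 24 members passed in both treatments, 16 higher and 8 lower in DTY-IL both times, which is 61.5% of the RDS list and 64.9% of the control list. Over all loci, those that passed in both treatments, in any direction, were 26.1% of the RDS list and 33.6% of the control list. The block was chosen on these contrasts, so nothing is read from these shares. The RDS libraries of DTY-IL and Swarna did not overlap in 66 members (15.9% of all loci), and the control libraries did not overlap in 56 (17.4% of all loci).

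The members that differed were spread along the block and stood between members that did not. The first was LOC_Os01g37200, the 6th member, and the last was LOC_Os01g41565, the 199th. The 6 neighbouring members from LOC_Os01g37200 to LOC_Os01g37325 all passed in at least 1 treatment, the longest such run. The longest run without a call held 20 members, from LOC_Os01g37760 to LOC_Os01g38120. Of the 48 members from LOC_Os01g37050 to LOC_Os01g37980, 12 passed in either treatment, as did 7 of the 26 from LOC_Os01g38100 to LOC_Os01g38990, 14 of the 46 from LOC_Os01g39000 to LOC_Os01g39990, 10 of the 54 from LOC_Os01g40000 to LOC_Os01g40990 and 9 of the 25 from LOC_Os01g41010 to LOC_Os01g41565. Of all 28283 loci, 1445 passed under control conditions and 1863 under RDS, and 486 of these passed in both. The shares of all loci given above are for 1 treatment each and do not compare with these counts for either treatment. The block was chosen on these contrasts, so nothing is read from the counts. Higher and lower members were interspersed. The median of the absolute log2 difference was 0.44 over the members under RDS and 0.46 under control conditions, against 0.33 and 0.36 over all loci.

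**Figure D1:**
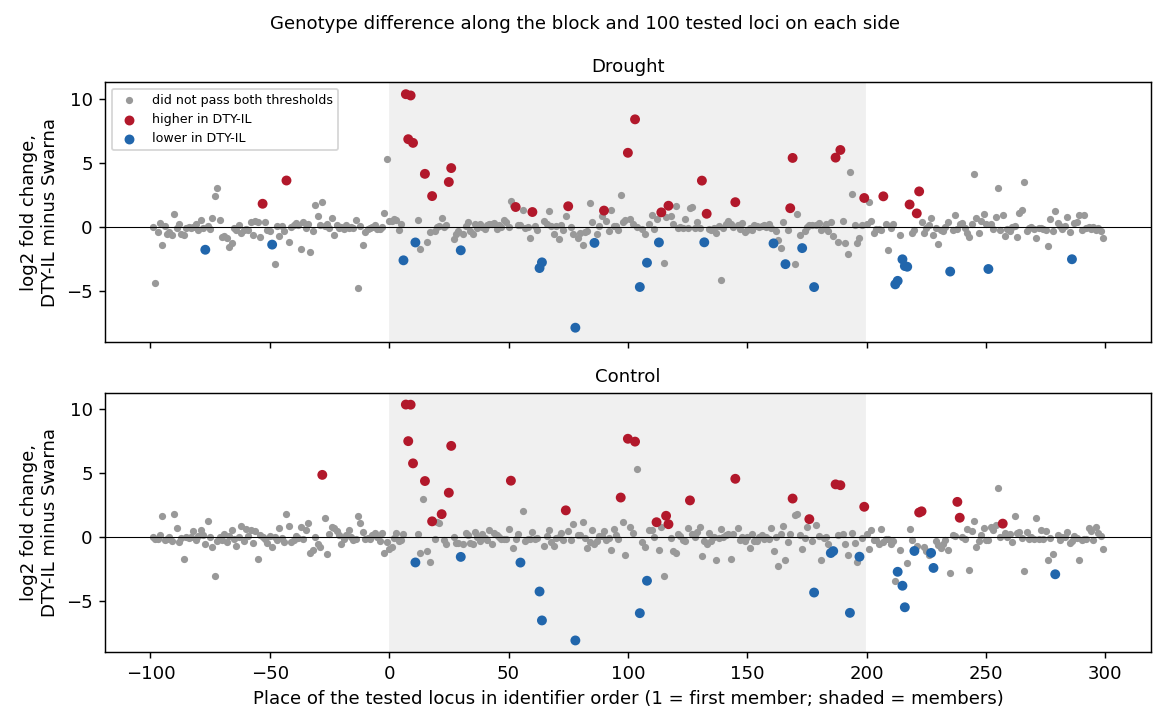
Log2 fold change of DTY-IL minus Swarna (vertical axis) for each tested locus in identifier order (horizontal axis) under drought (upper panel) and control conditions (lower panel), with the 199 members shaded and 100 tested loci on each side. Each point is 1 locus; red and blue points passed both thresholds, and 39 members under drought and 37 under control conditions did so, in both directions.

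The loci outside the 2 ends had unlike shares. Of the 100 tested loci before the block, 4 passed under RDS and 1 under control conditions. Of the 100 after it, 12 passed in each treatment, and 10 of these were among the nearest 50 loci, a share of 20%, about that among the members. The differences between the genotypes thus did not stop at the last member. At the first end, LOC_Os01g37040 outside the block averaged 10.5 ± 2.44 CPM in DTY-IL under RDS and 7.77 ± 2.67 CPM in Swarna under RDS, and 27.5 ± 9.77 CPM in DTY-IL controls and 53.2 ± 4.90 CPM in Swarna controls (SD, n = 4 each). The member next to it, LOC_Os01g37050, averaged 9.48 ± 2.28 CPM in DTY-IL under RDS and 6.97 ± 1.93 CPM in Swarna under RDS, and 18.0 ± 1.78 CPM in DTY-IL controls and 31.3 ± 5.55 CPM in Swarna controls. Neither of these loci passed between the genotypes in either treatment. At the other end the last member and its neighbour were unlike. LOC_Os01g41565 averaged 56.8 ± 7.86 CPM in DTY-IL under RDS and 11.98 ± 0.789 CPM in Swarna under RDS, and 54.0 ± 6.18 CPM in DTY-IL controls and 10.4 ± 2.14 CPM in Swarna controls. Its neighbour outside the block, LOC_Os01g41610, averaged 22.2 ± 3.09 CPM in DTY-IL under RDS and 19.1 ± 2.67 CPM in Swarna under RDS, and 29.7 ± 6.09 CPM in DTY-IL controls and 25.4 ± 5.004 CPM in Swarna controls. The genotypes thus stood apart at the last member and overlapped at the tested locus next to it.

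In 7 members the reads came from 1 genotype: no library of the other genotype held more than 3 counts, while the first averaged at least 10 counts. The share of such loci over the whole table is not given here, so nothing is read from this count. DTY-IL alone was read at 6 of them, LOC_Os01g37210, LOC_Os01g37220, LOC_Os01g37260, LOC_Os01g39580, LOC_Os01g39650 and LOC_Os01g41260, and Swarna alone at LOC_Os01g39040. LOC_Os01g37210 was at 10.3, 11.5, 10.4 and 7.06 CPM in the 4 DTY-IL libraries under RDS, against 0 counts in the 4 Swarna libraries under RDS. It was at 9.34, 10.3, 10.4 and 9.23 CPM in DTY-IL controls, against 0 counts in Swarna controls. All 8 DTY-IL libraries therefore stood above all 8 Swarna libraries, and the log2 drought change in DTY-IL was -0.01 ± 0.19 (SE). Set against a floor of 3 counts in each Swarna library, the level in DTY-IL was at least 64.8-fold higher under RDS and at least 44.6-fold higher under control conditions.

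LOC_Os01g37260 had the same pattern 2 members further on. It was at 8.36, 11.7, 8.67 and 7.86 CPM in DTY-IL under RDS and at 9.48, 10.4, 10.7 and 8.41 CPM in DTY-IL controls, against 0 counts in every Swarna library. The bounds were at least 60.4-fold higher under RDS and at least 44.2-fold higher under control conditions. Between them, LOC_Os01g37220 averaged 0.850 ± 0.356 CPM in DTY-IL under RDS and 1.35 ± 0.171 CPM in DTY-IL controls, again with 0 counts in Swarna, so that bounds of at least 5.61-fold higher under RDS and at least 6.10-fold higher under control conditions applied. None of these 3 loci passed for drought in DTY-IL.

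The other loci of this kind were read at lower levels. LOC_Os01g39650 was at 1.69, 2.61, 3.75 and 1.94 CPM in DTY-IL under RDS and at 1.80, 0.597, 1.31 and 1.56 CPM in DTY-IL controls, with 0 counts in Swarna, so that it was at least 16.5-fold higher under RDS and at least 5.97-fold higher under control conditions. LOC_Os01g39580 was at 0.328, 0.475, 0.731 and 0.0569 CPM in DTY-IL under RDS and 2.28, 2.19, 0.855 and 0.819 CPM in DTY-IL controls, with 0 counts in Swarna. This locus was lower under RDS in every DTY-IL library than in any DTY-IL control (log2 fold change -1.91 ± 0.61, SE, edgeR adjusted p = 0.026). LOC_Os01g41260 held a few counts in Swarna. It was at 3.72, 3.09, 3.41 and 3.76 CPM in DTY-IL under RDS, against 0.144, 0, 0 and 0.155 CPM in Swarna under RDS, and at 1.73, 1.86, 1.94 and 1.34 CPM in DTY-IL controls, against 0.0630, 0, 0.0732 and 0.237 CPM in Swarna controls. Its RDS libraries in DTY-IL lay above all DTY-IL controls, with a log2 fold change of 1.02 ± 0.38 (SE) and an edgeR adjusted p of 0.041.

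LOC_Os01g39040 was the reverse case. No DTY-IL library held a count there, and it was at 2.16, 1.47, 1.65 and 1.81 CPM in Swarna under RDS and at 1.89, 2.45, 2.12 and 1.58 CPM in Swarna controls. Set against 3 counts in each DTY-IL library, the DTY-IL level was at least 10.8-fold lower under RDS and at least 10.0-fold lower under control conditions. A count of 0 limits the level in a library to that of 3 counts and does not show that the transcript is absent.

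**Figure D2:**
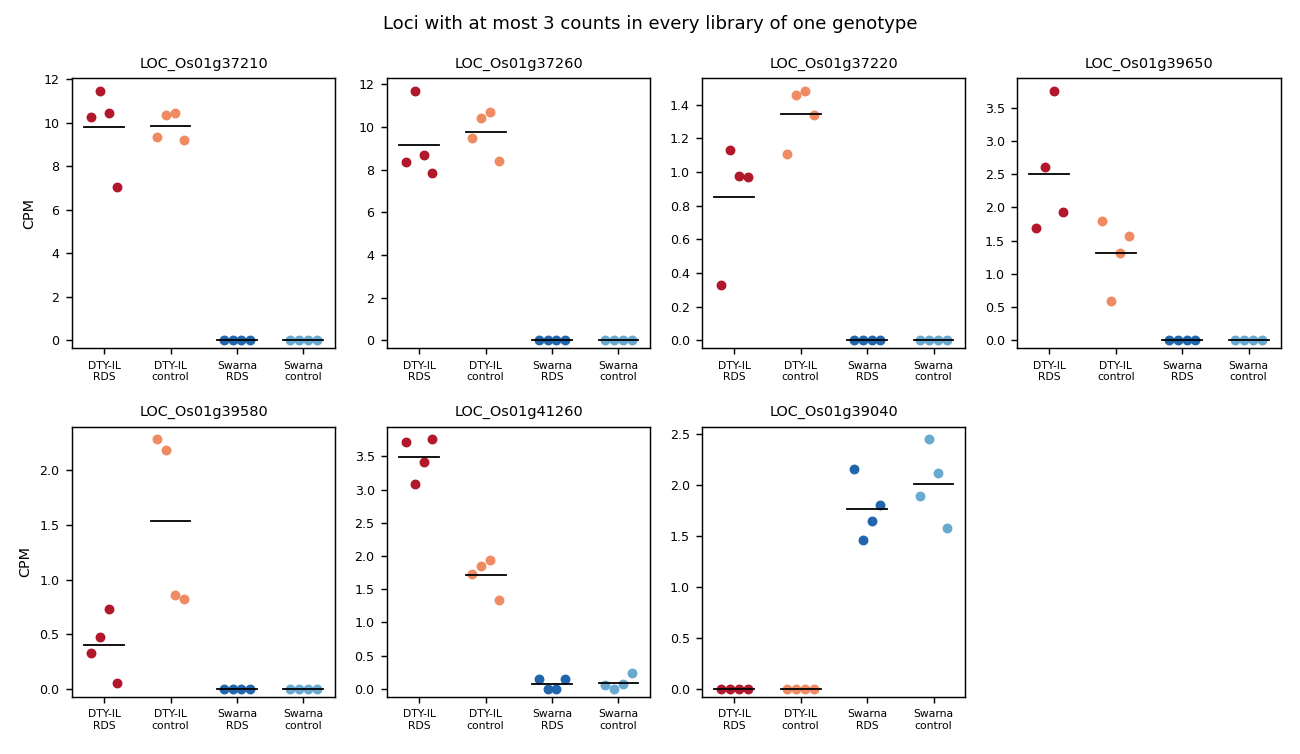
Level in CPM (vertical axes, linear from 0) of the 7 members with at most 3 counts in every library of 1 genotype; each point is a library, 4 per group, and each line a group mean. The first 6 panels have all Swarna libraries at or near 0, and LOC_Os01g39040 has all 8 DTY-IL libraries at 0.

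Other members were read in both genotypes at very different levels. LOC_Os01g37280 was at 31.1, 68.6, 38.6 and 43.7 CPM in DTY-IL under RDS, against 0.768, 0.489, 0.267 and 0.361 CPM in Swarna under RDS. It was at 52.0, 49.5, 51.2 and 55.7 CPM in DTY-IL controls, against 0.819, 1.11, 1.24 and 0.631 CPM in Swarna controls. Every DTY-IL library was above every Swarna library, with log2 differences of 6.55 ± 0.30 (SE) under RDS and 5.77 ± 0.29 under control conditions. LOC_Os01g37630 was at 7.21, 5.46, 5.31 and 5.64 CPM in DTY-IL under RDS, against 0.240, 0.293, 0.320 and 0.103 CPM in Swarna under RDS. It was at 21.7, 20.7, 19.2 and 14.3 CPM in DTY-IL controls, against 0.126, 0.316, 0.0732 and 0 CPM in Swarna controls. The log2 differences were 4.58 ± 0.33 under RDS and 7.13 ± 0.38 under control conditions, and the groups did not overlap in either treatment.

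Among the members that were lower in DTY-IL, LOC_Os01g39670 was at 0.328, 0.475, 0.487 and 0.455 CPM in DTY-IL under RDS, against 11.5, 10.8, 13.0 and 11.4 CPM in Swarna under RDS. Its log2 difference under RDS was -4.72 ± 0.29 (SE). In DTY-IL controls it held 3 counts in all, against 192 in Swarna controls, a level 70.6-fold lower in DTY-IL with an exact 95% counting interval of 23.8 to 345. LOC_Os01g38560 was at 1.15, 0.713, 1.02 and 1.139 CPM in DTY-IL under RDS, against 8.30, 11.7, 8.16 and 10.01 CPM in Swarna under RDS, and at 0.208, 0.199, 0.0570 and 0.223 CPM in DTY-IL controls, against 3.09, 2.93, 3.44 and 3.79 CPM in Swarna controls. Its log2 differences were -3.23 ± 0.23 under RDS and -4.25 ± 0.31 under control conditions. LOC_Os01g39770 was at 0.820, 1.96, 1.32 and 1.02 CPM in DTY-IL under RDS, against 9.65, 8.99, 6.61 and 10.9 CPM in Swarna under RDS, and at 1.18, 1.46, 0.798 and 1.49 CPM in DTY-IL controls, against 15.7, 15.5, 13.2 and 7.73 CPM in Swarna controls. All 3 loci were lower in every DTY-IL library than in any Swarna library of the same treatment, and the log2 differences of LOC_Os01g39770 were -2.82 ± 0.29 under RDS and -3.41 ± 0.30 under control conditions.

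The drought changes tell how the members behaved within each genotype. In DTY-IL 40 of the 199 members (20.1%) changed under RDS, 22 up and 18 down, against 23.5% of all loci (12.0% up and 11.5% down). In Swarna 57 members (28.6%) changed, 29 up and 28 down, against 32.6% of all loci (15.2% up and 17.3% down). The shares of the members were thus close to, and slightly under, those of all loci in both genotypes. The median log2 change over the members was 0 in DTY-IL and in Swarna, beside 0.03 and 0.06 over all loci. Members with 0 counts in every library of a genotype, such as LOC_Os01g37210 in Swarna, had a fitted change of 0 there and could not pass. They are kept among the 199 in these shares and medians, as such loci are among all loci. The median absolute log2 change was 0.53 in DTY-IL and 0.59 in Swarna, beside 0.64 and 0.79 over all loci. The RDS libraries did not overlap with the controls in 56 members in DTY-IL (35.0% of all loci) and in 85 members in Swarna (46.8% of all loci). With library size as the only scaling, the median of all loci lay at 0.43 in DTY-IL and 0.70 in Swarna, and the splits became 37 up against 12 down in DTY-IL, and 56 up against 17 down in Swarna. Since whole leaves were sequenced, fewer cells of a type and less RNA per cell cannot be told apart in any of these changes.

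The lists of both genotypes, which come from separate libraries, shared 29 members, 18 up and 11 down in both. This was 72.5% of the DTY-IL list and 50.9% of the Swarna list, beside 78.6% and 56.7% over all loci. A further 11 members passed in DTY-IL alone, 4 up and 7 down, and 28 passed in Swarna alone, 11 up and 17 down. Passing in 1 genotype alone does not show that the genotypes differ, and the interaction is given further on. Among the 29 shared members the change was smaller in DTY-IL for 23 (79.3%), beside 72.8% of the shared loci of the whole table.

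**Figure D3:**
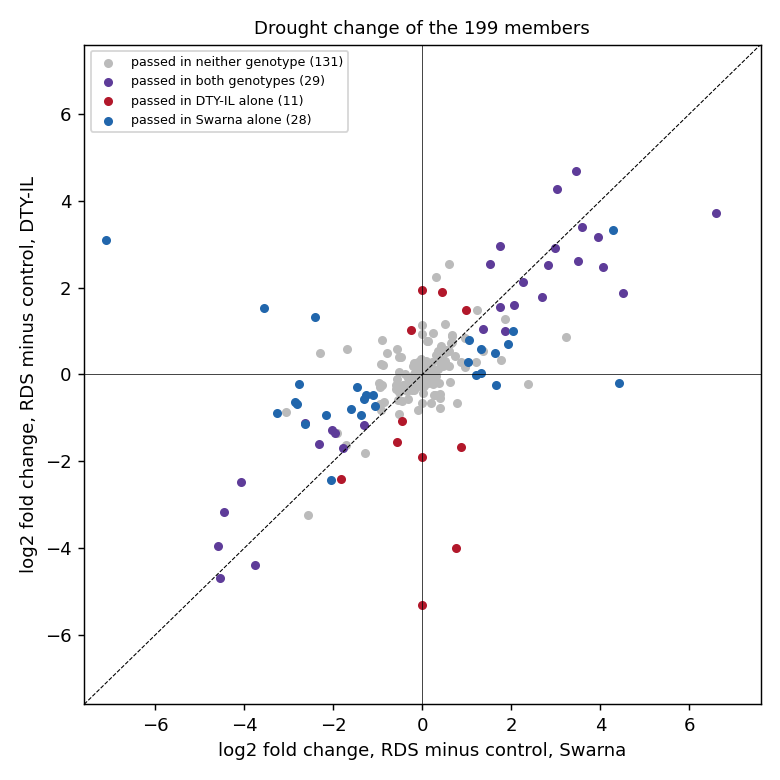
Log2 fold change of RDS minus control in DTY-IL (vertical axis) and in Swarna (horizontal axis), 1 point for each of the 199 members, coloured by where the member passed both thresholds; the dashed line marks equal changes. The 29 members that passed in both genotypes lie in the upper right (18) and lower left (11) of the plot; fitted values of members with few counts depend on the prior count.

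LOC_Os01g38530 was among the largest rises in each genotype. It was at 51.5, 52.0, 43.8 and 56.8 CPM in DTY-IL under RDS, against 5.40, 3.65, 6.33 and 4.02 CPM in DTY-IL controls. It was at 89.9, 53.4, 49.8 and 52.6 CPM in Swarna under RDS, against 5.42, 4.11, 5.71 and 5.21 CPM in Swarna controls. The stressed libraries were far above all controls in both genotypes, and the levels of the genotypes overlapped within each treatment. Its log2 fold change was 3.39 ± 0.21 in DTY-IL (SE, edgeR adjusted p = 2.0e-09) and 3.58 ± 0.22 in Swarna (edgeR adjusted p = 5.1e-10).

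LOC_Os01g40190 also rose in both genotypes. It was at 11.3, 10.5, 12.7 and 18.8 CPM in DTY-IL under RDS, against 1.38, 1.39, 1.65 and 2.68 CPM in DTY-IL controls, and at 19.7, 15.5, 9.28 and 12.5 CPM in Swarna under RDS, against 2.46, 1.503, 1.83 and 1.34 CPM in Swarna controls. The rise was 2.91 ± 0.29 on the log2 scale in DTY-IL (SE, edgeR adjusted p = 3.6e-07) and 2.98 ± 0.29 in Swarna (edgeR adjusted p = 1.6e-07). Both rises were without overlap. LOC_Os01g39860 also rose in both genotypes. It was at 7.49, 4.28, 6.33 and 6.49 CPM in DTY-IL under RDS, against 0.830, 0.795, 0.513 and 1.94 CPM in DTY-IL controls, and at 3.93, 3.67, 3.09 and 3.56 CPM in Swarna under RDS, against 0.252, 0.237, 0.512 and 0.237 CPM in Swarna controls. Its log2 fold change was 2.61 ± 0.32 in DTY-IL (SE, edgeR adjusted p = 5.2e-06) and 3.49 ± 0.38 in Swarna (edgeR adjusted p = 6.7e-07). Under RDS the DTY-IL libraries of this locus all lay above the Swarna libraries, and under control conditions the lowest DTY-IL library was at 0.513 CPM and the highest Swarna library at 0.512 CPM.

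Other members rose under RDS at low control levels. LOC_Os01g39020 was at 5.03, 2.32, 5.70 and 7.34 CPM in DTY-IL under RDS, against 1.18, 0.795, 1.197 and 0.447 CPM in DTY-IL controls, with a log2 fold change of 2.47 ± 0.39 (SE, edgeR adjusted p = 7.7e-05). In Swarna it was at 11.04, 5.67, 5.23 and 7.90 CPM under RDS, against 0.252, 0.237, 0.586 and 0.710 CPM in controls, with a log2 fold change of 4.06 ± 0.44 (SE, edgeR adjusted p = 5.8e-07). The stressed libraries of both genotypes lay above all their controls. LOC_Os01g37200 was at 4.70, 0.297, 0.731 and 1.59 CPM in DTY-IL under RDS, against 0.0692, 0, 0.171 and 0.298 CPM in DTY-IL controls (log2 fold change 3.72 ± 0.97, SE, edgeR adjusted p = 0.0053), and its lowest stressed library was just under the highest control. In Swarna it was at 25.7, 5.57, 5.97 and 8.16 CPM under RDS, against 0.189, 0.237, 0 and 0 CPM in controls, which held 6 counts in all (log2 fold change 6.61 ± 0.95, SE, edgeR adjusted p = 1.6e-05). All DTY-IL libraries under RDS were below those of Swarna under RDS, with a log2 difference of -2.63 ± 0.66. Swarna replicate 1 under RDS was far above the other 3, and without it that difference was -1.82 and lost its call.

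A pair of members that were much lower in DTY-IL than in Swarna also rose. LOC_Os01g38560 rose by 2.54 ± 0.33 on the log2 scale in DTY-IL (SE, edgeR adjusted p = 9.0e-06) and by 1.53 ± 0.21 in Swarna (edgeR adjusted p = 1.2e-05). LOC_Os01g39670 held 32 counts in DTY-IL under RDS, against 3 in DTY-IL controls, a ratio of 8.81 with an exact 95% counting interval of 2.76 to 44.99 (edgeR adjusted p = 1.8e-04). In Swarna it was at 11.5, 10.8, 13.0 and 11.4 CPM under RDS, against 3.47, 2.45, 3.88 and 4.18 CPM in controls, a log2 fold change of 1.74 ± 0.23 (SE, edgeR adjusted p = 7.9e-06). Both loci thus rose in both genotypes while their DTY-IL levels under RDS stayed below every Swarna control.

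LOC_Os01g37590 fell in both genotypes. It was at 24.6, 7.78, 33.7 and 28.1 CPM in DTY-IL under RDS, against 288, 465, 469 and 242 CPM in DTY-IL controls, and at 20.2, 25.3, 20.1 and 21.9 CPM in Swarna under RDS, against 554, 447, 546 and 551 CPM in Swarna controls. All stressed libraries were below all controls. The log2 fold change was -3.96 ± 0.34 in DTY-IL (SE, edgeR adjusted p = 7.3e-08) and -4.58 ± 0.35 in Swarna (edgeR adjusted p = 9.6e-09). LOC_Os01g41240 was at 6.67, 4.99, 4.87 and 4.61 CPM in DTY-IL under RDS, against 22.1, 35.4, 38.3 and 22.0 CPM in DTY-IL controls, and at 2.93, 5.67, 2.51 and 5.32 CPM in Swarna under RDS, against 59.1, 80.6, 74.5 and 64.5 CPM in Swarna controls. Its log2 fold change was -2.48 ± 0.25 in DTY-IL (SE, edgeR adjusted p = 4.9e-07) and -4.08 ± 0.27 in Swarna (edgeR adjusted p = 1.3e-09). The stressed libraries of the 2 genotypes overlapped, whereas the DTY-IL controls were all below the Swarna controls.

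LOC_Os01g37690 fell in both genotypes. It was at 40.3, 45.0, 46.4 and 68.6 CPM in DTY-IL under RDS, against 138, 190.0, 183 and 134 CPM in DTY-IL controls, and at 48.8, 81.6, 66.8 and 57.2 CPM in Swarna under RDS, against 167, 239, 272 and 198 CPM in Swarna controls. These were log2 fold changes of -1.69 ± 0.21 in DTY-IL (SE, edgeR adjusted p = 4.7e-06) and -1.78 ± 0.21 in Swarna (edgeR adjusted p = 1.4e-06), without overlap in either genotype. LOC_Os01g39970 was at 5.25, 4.16, 4.09 and 3.53 CPM in DTY-IL under RDS, against 15.2, 4.57, 127 and 6.48 CPM in DTY-IL controls, a log2 fold change of -3.18 ± 0.75 (SE, edgeR adjusted p = 0.0026). DTY-IL control replicate 3 was above every Swarna control, and without it the log2 fold change was -1.04 (edgeR adjusted p = 0.017). In Swarna the locus was at 2.64, 4.94, 4.53 and 2.99 CPM under RDS, against 76.7, 96.6, 95.5 and 65.6 CPM in controls, a log2 fold change of -4.47 ± 0.79 (SE, edgeR adjusted p = 1.3e-04).

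**Figure D4:**
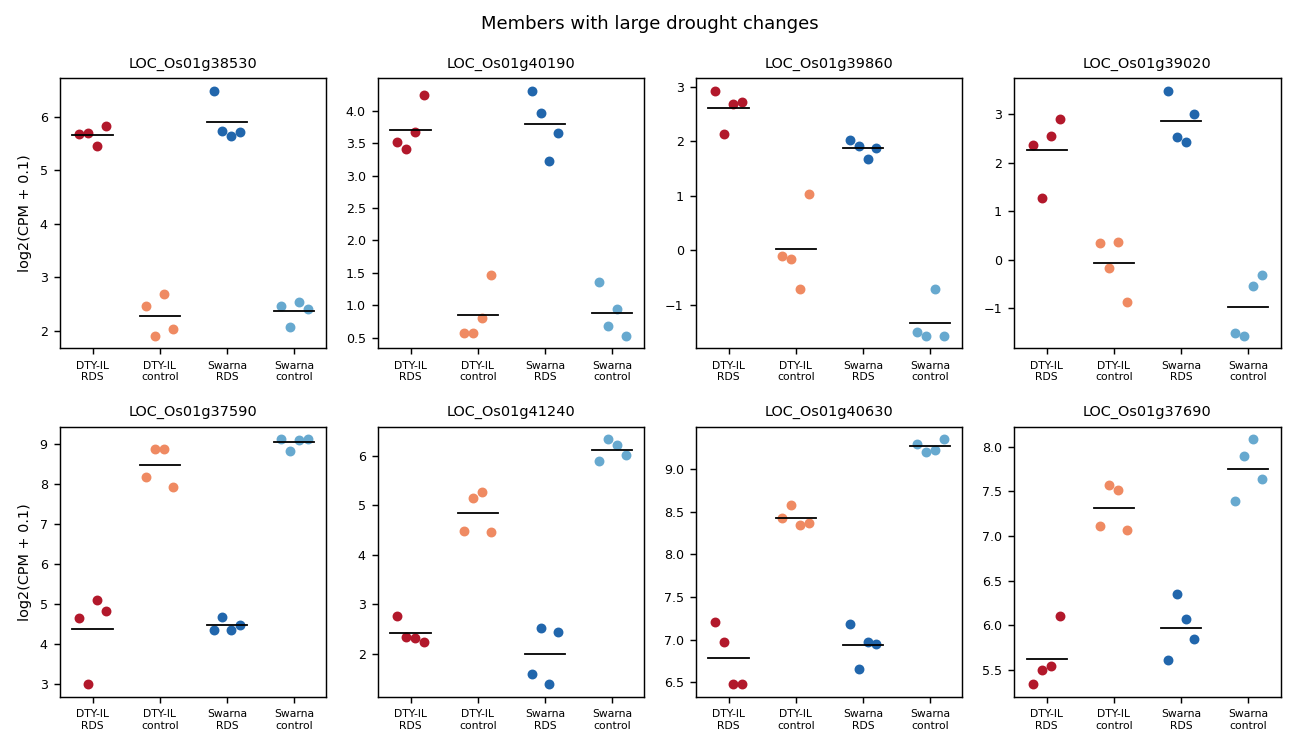
Level as log2(CPM + 0.1) (vertical axes) of 8 members with large drought changes; each point is a library, 4 per group, and each line a group mean. The upper 4 loci are higher and the lower 4 lower in every RDS library than in any control of the same genotype.

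The 5 members with the highest mean CPM were LOC_Os01g40630, LOC_Os01g37910, LOC_Os01g37590, LOC_Os01g40310 and LOC_Os01g37130, and all 5 fell in Swarna. They held the most reads of the block, which is no order of transcript levels, since lengths were not used. LOC_Os01g40630 was at 147, 125, 88.8 and 89.4 CPM in DTY-IL under RDS, against 345, 381, 324 and 331 CPM in DTY-IL controls, and at 145, 101, 125 and 124 CPM in Swarna under RDS, against 628, 587, 596 and 653 CPM in Swarna controls. Its log2 fold change was -1.61 ± 0.17 in DTY-IL (SE, edgeR adjusted p = 6.4e-07) and -2.32 ± 0.17 in Swarna (edgeR adjusted p = 6.1e-09). The stressed libraries of the genotypes overlapped, and the DTY-IL controls all lay below the Swarna controls. LOC_Os01g37910 averaged 194 ± 30.2 CPM in DTY-IL under RDS and 286 ± 118 CPM in DTY-IL controls (SD, n = 4 each), where it did not pass (log2 fold change -0.56 ± 0.25, SE, edgeR adjusted p = 0.085). In Swarna it averaged 164 ± 19.004 CPM under RDS and 405 ± 112 CPM in controls (log2 fold change -1.31 ± 0.25, SE, edgeR adjusted p = 3.5e-04). LOC_Os01g37130 averaged 135 ± 8.19 CPM in DTY-IL under RDS and 259 ± 31.6 CPM in DTY-IL controls, and 117 ± 6.36 CPM in Swarna under RDS and 306 ± 26.5 CPM in Swarna controls. Its log2 fold change was -0.94 ± 0.12 in DTY-IL (SE, edgeR adjusted p = 8.1e-06), short of the fold threshold, and -1.39 ± 0.12 in Swarna (edgeR adjusted p = 5.2e-08).

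The summed level of all members depended on the scaling and on these few loci. As CPM of the library total, the sum averaged 4825 ± 121 in DTY-IL under RDS and 4557 ± 316 in DTY-IL controls, and 4971 ± 144 in Swarna under RDS and 4768 ± 288 in Swarna controls (SD, n = 4 each). Without the 5 members of highest mean CPM it averaged 4151 ± 160 in DTY-IL under RDS and 3233 ± 190 in DTY-IL controls, and 4357 ± 168 in Swarna under RDS and 2979 ± 154 in Swarna controls. With TMM scaling all 199 members together averaged 4207 ± 169 in DTY-IL under RDS and 5250 ± 255 in DTY-IL controls, and 3953 ± 207 in Swarna under RDS and 5964 ± 99.3 in Swarna controls. The drought change of the sum was thus positive on the first scale and negative on the TMM scale, and it was not tested.

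The drought change differed between the genotypes past both thresholds in 14 members (7.04%), beside 4.91% of all loci. The interaction, which is the drought change in DTY-IL minus that in Swarna, was positive in 11 of them and negative in 3 (3.52% and 1.39% of all loci). It is built from the contrasts that chose the block and is given without a test. Of the 14, 3 passed for drought in DTY-IL, while 8 fell and 2 rose in Swarna. The absolute change was smaller in DTY-IL for 12 of the 14, and 7 had fitted changes of opposite sign in the 2 genotypes. A sign alone can rest on a change near 0, such as that of LOC_Os01g38990 in DTY-IL. Of all members, 0 passed for drought in opposite directions, and the shares of all loci for these counts are not given here. One of the 14, LOC_Os01g41420, was singled out after its values were seen: Swarna control replicate 4 held 213 of its 231 counts in Swarna controls. Without that library its log2 drought change in Swarna was -3.76 in place of -7.11, and its interaction 6.84 in place of 10.21. In DTY-IL under RDS the locus held 5, 1, 43 and 0 counts, and without replicate 3 its drought change in DTY-IL was 0.70 in place of 3.10, and the interaction was 7.80 and did not pass. With library size as the only scaling, the median interaction of all loci was -0.23, and 10 members passed, 5 positive and 5 negative.

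LOC_Os01g40870 had the largest positive interaction among members with a mean of at least 50 counts. It was at 6.99, 16.4, 6.58 and 9.05 CPM in DTY-IL under RDS, against 18.8, 20.1, 21.3 and 12.3 CPM in DTY-IL controls, and at 0.192, 0.196, 0.320 and 0.206 CPM in Swarna under RDS, against 1.83, 3.16, 1.02 and 2.997 CPM in Swarna controls. The log2 fold change was -0.90 ± 0.30 in DTY-IL (SE, edgeR adjusted p = 0.023) and -3.26 ± 0.45 in Swarna (edgeR adjusted p = 1.1e-05), and the interaction was 2.36 ± 0.55. The DTY-IL libraries were above the Swarna libraries in both treatments, by a log2 difference of 5.38 ± 0.42 under RDS and 3.02 ± 0.34 under control conditions. LOC_Os01g40310 was at 178, 101, 98.5 and 117 CPM in DTY-IL under RDS, against 288, 289.7, 272 and 231 CPM in DTY-IL controls, and at 40.02, 66.1, 74.4 and 65.2 CPM in Swarna under RDS, against 334, 439.7, 362 and 404 CPM in Swarna controls. It fell in both genotypes, by log2 fold changes of -1.13 ± 0.20 in DTY-IL (SE, edgeR adjusted p = 2.6e-04) and -2.65 ± 0.21 in Swarna (edgeR adjusted p = 1.7e-08), with an interaction of 1.52 ± 0.29. Its DTY-IL libraries lay above those of Swarna under RDS and below them under control conditions.

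The first member was also among the 14. LOC_Os01g37050 was at 10.5, 11.3, 6.19 and 9.85 CPM in DTY-IL under RDS, against 18.4, 18.6, 19.5 and 15.4 CPM in DTY-IL controls, and at 4.70, 6.45, 9.33 and 7.38 CPM in Swarna under RDS, against 25.1, 38.5, 31.8 and 29.7 CPM in Swarna controls. The log2 fold change was -0.93 ± 0.20 in DTY-IL (SE, edgeR adjusted p = 0.0015) and -2.17 ± 0.21 in Swarna (edgeR adjusted p = 1.6e-07), and the interaction was 1.24 ± 0.29. The control groups did not overlap and the RDS groups did. LOC_Os01g41240, whose values are given above, had an interaction of 1.60 ± 0.35. LOC_Os01g38359 was at 0.710, 4.28, 1.17 and 0.854 CPM in DTY-IL under RDS, against 2.35, 1.52, 3.59 and 3.65 CPM in DTY-IL controls, and at 1.68, 1.66, 1.55 and 1.39 CPM in Swarna under RDS, against 11.6, 12.7, 9.66 and 10.3 CPM in Swarna controls. It fell in Swarna (log2 fold change -2.81 ± 0.42, SE, edgeR adjusted p = 2.6e-05). Its interaction was 2.13 ± 0.60. DTY-IL replicate 2 under RDS was far above the other 3, and without it the interaction was 1.22 and did not pass.

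LOC_Os01g38229 was at 3.61, 10.7, 6.14 and 2.79 CPM in DTY-IL under RDS, against 2.84, 2.52, 3.82 and 4.17 CPM in DTY-IL controls, and at 1.73, 1.91, 2.29 and 2.06 CPM in Swarna under RDS, against 3.47, 5.46, 2.63 and 3.39 CPM in Swarna controls. Neither drought change reached both thresholds, and the interaction was 1.70 ± 0.49. The DTY-IL groups overlapped and the Swarna groups did not. The interactions of LOC_Os01g38229 and LOC_Os01g38359 were lost under many of the alternative settings given below.

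The 3 negative interactions were those of LOC_Os01g37630, LOC_Os01g38990 and LOC_Os01g41030. LOC_Os01g37630, whose values are given above, fell in DTY-IL by a log2 fold change of -1.68 ± 0.24 (SE, edgeR adjusted p = 2.8e-05). In Swarna it lay near the level of 3 counts in both treatments, and the interaction was -2.55 ± 0.60. LOC_Os01g38990 was at 18.3, 22.0, 29.6 and 24.99 CPM in DTY-IL under RDS, against 28.3, 23.5, 26.3 and 18.2 CPM in DTY-IL controls, and at 14.3, 13.5, 12.7 and 11.9 CPM in Swarna under RDS, against 6.74, 4.27, 4.83 and 6.63 CPM in Swarna controls. The change in DTY-IL was -0.02 ± 0.17 (SE, edgeR adjusted p = 0.94), whereas the locus rose in Swarna (log2 fold change 1.22 ± 0.19, edgeR adjusted p = 2.9e-05), and the interaction was -1.23 ± 0.25. Even under RDS no Swarna library of this locus reached the lowest DTY-IL library. LOC_Os01g41030 was at 11.7, 9.98, 12.9 and 12.5 CPM in DTY-IL under RDS, against 9.96, 10.6, 7.81 and 17.5 CPM in DTY-IL controls, and at 9.31, 11.7, 11.2 and 10.6 CPM in Swarna under RDS, against 3.78, 4.43, 3.95 and 5.13 CPM in Swarna controls. It rose in Swarna to a level that overlapped with both DTY-IL groups (log2 fold change 1.31 ± 0.21, SE, edgeR adjusted p = 4.5e-05). The interaction was -1.27 ± 0.29, and without DTY-IL control replicate 4, the highest library of this locus, it was -0.99 and short of the fold threshold.

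**Figure D5:**
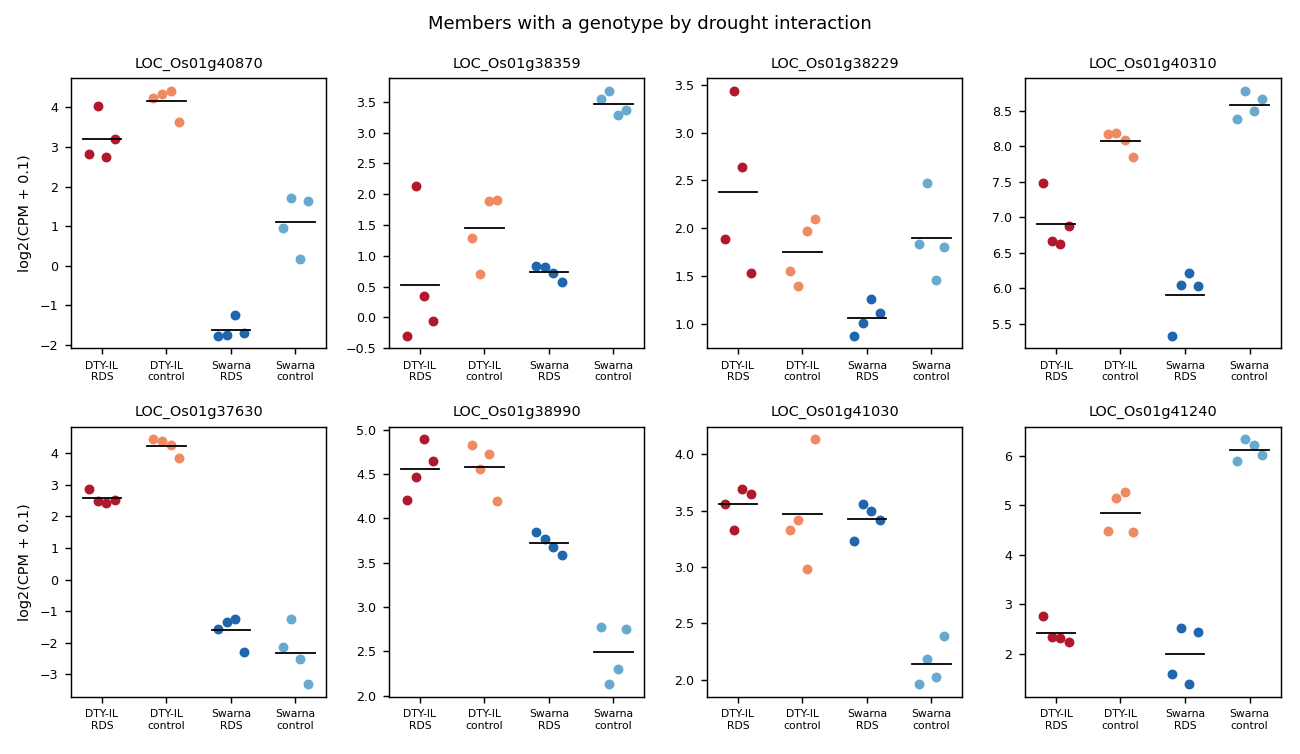
Level as log2(CPM + 0.1) (vertical axes) of 8 members with a genotype by drought interaction; each point is a library, 4 per group, and each line a group mean. LOC_Os01g40870 and LOC_Os01g37630 are higher in DTY-IL in both treatments, and LOC_Os01g41240 has its genotypes apart in the controls and overlapping under RDS.

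Some members held both a genotype call and a drought call. Of the 52 members that passed between the genotypes in either treatment, 29 also passed for drought in at least 1 genotype and 23 did not. A further 39 members passed for drought alone. These contrasts share libraries, so the counts are given as a description. Such counts over all loci are not given here, and nothing is read from those of the members. LOC_Os01g41565 was among the 23: its log2 drought change was 0.07 ± 0.14 in DTY-IL (SE, edgeR adjusted p = 0.72) and 0.20 ± 0.15 in Swarna (edgeR adjusted p = 0.28). At this locus the DTY-IL libraries lay between 49.9 and 67.8 CPM and the Swarna libraries between 8.12 and 12.8 CPM over both treatments.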

How the data were processed

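Paired-end libraries were made from flag-leaf mRNA of both genotypes in both treatments. After trimming with Trimmomatic, the authors quantified reads with Salmon 0.7.2 against japonica reference transcripts. The deposited table holds expected counts (each an estimated count of reads per locus, as the authors made it with Salmon), in whole numbers and not normalized. Reads of both genotypes were thus matched to another variety, and a transcript that differs from it in sequence can be counted less completely. How far members share reads with near-identical copies or overlapping loci was not tested. It is not given in the sources used here whether counts were scaled by transcript length. The authors' 4 DESeq2 1.14.1 contrast tables, with fold changes and p-values, were not used.

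Groups came from the sample titles. All 28283 loci with a total of 10 counts or more entered one edgeR 4.0.16 quasi-likelihood fit (R 4.3.3) of the 4 group means, with TMM scaling, all 16 libraries, two-sided tests and Benjamini-Hochberg adjustment. Calls needed both an adjusted p no higher than 0.05 and a log2 fold change of 1 or more in size. Members were named for the largest called fold changes, up to 4 per direction and contrast. These needed a mean count of 50 or more and no overlap of the groups. The 3 largest called interactions per direction at a mean count of 50 or more were also named. So were members with one of the 5 highest mean CPM, a place at an end of the block, or reads in 1 genotype alone. Of the last kind, 3 further loci outside that rule were added after their values were seen. The members and lists were chosen with earlier results of these data known. Scripts were tested on simulated data. The alternatives were RLE factors, library size alone, other filters, DESeq2 1.42.0, limma-voom (limma 3.58.1), other thresholds, a replicate block and removal of each library.

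Library totals ranged from 14250527 to 19367077 counts. Intervals and floors cover counting error only. For each pair of replicates the squared difference was 11.5 times the counting variance or more, so none was a copy. The labels call the replicates independent. Pots were laid out in randomized blocks per the study's methods, and whether a replicate number names such a block is not given in the sources used here. No genome was used, and positions are the order of the identifiers. Python 3.11.15 with pandas 2.3.3, NumPy 2.4.6, SciPy 1.17.1 and matplotlib 3.10.9 served for summaries and plots.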

Additional observations from a re-analysis of the deposited data

Results flagged for a closer look

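In 5 of 97 groups of named members, 1 library stood apart from the other 3: its gap to the nearest, divided by the range of the group, was above Dixon's critical value for 4 samples. Chance gives about 1 such group in 20. The ratio was 0.911 for LOC_Os01g38530 in Swarna under RDS, where replicate 1 was highest (89.9, 53.4, 49.8 and 52.6 CPM), and 0.872 for LOC_Os01g37200 in the same group, where replicate 1 was again highest (25.7, 5.57, 5.97 and 8.16 CPM). It was 0.871 for LOC_Os01g38359 in DTY-IL under RDS, where replicate 2 was highest (0.710, 4.28, 1.17 and 0.854 CPM). It was 0.913 for LOC_Os01g39970 in DTY-IL controls, where replicate 3 was highest (15.2, 4.57, 127 and 6.48 CPM), and 0.928 for LOC_Os01g37590 in Swarna controls, where replicate 2 was lowest (554, 447, 546 and 551 CPM).

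The drought change of 9 named members differed between DTY-IL and Swarna past both thresholds of the interaction. The log2 difference of the changes, DTY-IL minus Swarna, was 2.36 for LOC_Os01g40870, 2.13 for LOC_Os01g38359, 1.70 for LOC_Os01g38229, 1.60 for LOC_Os01g41240, 1.52 for LOC_Os01g40310 and 1.24 for LOC_Os01g37050. It was -2.55 for LOC_Os01g37630, -1.27 for LOC_Os01g41030 and -1.23 for LOC_Os01g38990. These members were chosen with the genotype contrasts known, so the values are a description.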

How the results depend on the processing

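Counts of members called stayed within 1.5 times the values given under every other scaling, filter and tool tried, except without the fold threshold: adjusted p alone gave 71 members for drought in DTY-IL and 90 in Swarna. With each library left out in turn the counts ranged from 33 to 47 for drought in DTY-IL, 51 to 59 for drought in Swarna, 32 to 40 for genotype under RDS, 32 to 39 for genotype under control conditions and 11 to 17 for the interaction. The members read in 1 genotype ranged from 7 to 9, and were 13 with up to 10 counts allowed in the other genotype. The members that kept their call under all of these alternatives, the change of threshold aside, were 21 of 40 for drought in DTY-IL, 35 of 57 for drought in Swarna, 25 of 39 and 28 of 37 for genotype under RDS and control conditions, and 5 of 14 for the interaction. Of the 38 calls for which members were named by the size of a change, 33 were kept in all 25 settings and 0 reversed. Other calls of named members, such as that of LOC_Os01g41260 for drought in DTY-IL, are not among these 38. The interaction of LOC_Os01g38229 was lost in 17 settings, that of LOC_Os01g38359 in 15 and that of LOC_Os01g40870 with limma-voom. The interaction of LOC_Os01g41030 and the RDS difference of LOC_Os01g37200 were each lost without 1 library. The cause of these losses was not tested. The block was chosen on the genotype contrasts, so their kept calls, and those of the interaction, describe the processing alone.

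The summed level averaged 4151, 3233, 4357 and 2979 CPM in DTY-IL under RDS, DTY-IL controls, Swarna under RDS and Swarna controls without the 5 members of highest mean CPM, and 4207, 5250, 3953 and 5964 CPM with TMM scaling. Before the block, the share of loci called between the genotypes under control conditions was 2.0% of the nearest 50 and 2.5% of the nearest 200, in place of 1.0% of 100, and under RDS it was 2.0% of 200 in place of 4.0%. After the block it was 20% of the nearest 50 in each treatment, in place of 12%. Of the nearest 200 after the block, 9.5% were called under control conditions and 12.0% under RDS.

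The replicate numbers were not taken to pair the samples, since deviations of same-numbered libraries correlated between -0.06 and 0.15 for the title numbers and between -0.14 and 0.15 for the description numbers. Whether either number names a greenhouse block is not given in the sources used here. A replicate block by title number gave 37 members for drought in DTY-IL, 55 for drought in Swarna, 37 for genotype under RDS, 34 under control conditions and 12 for the interaction. A replicate block by description number gave 33, 54, 29, 35 and 12 in that order. Depth limits the 57 members with a mean under 10 counts.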
